A study of Mus musculus with 8 samples.

Results

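The genes described here are those of mouse that encode glutathione transferases, cytochromes P450 and the related drug-metabolising enzymes, taken from the deposited expression table by name. A gene was included when its symbol began with Cyp, Gst, Ugt, Ephx, Fmo or Sult followed by a letter or digit, and Cyp51, the cyclophilins and the cytoplasmic FMR1 interactors were left out. This gave 181 of the 21878 genes in the table. Their names describe an enzyme or an enzyme domain in 173 of the 181. The other 8, the matrix proteoglycan fibromodulin (Fmod) and 7 Cypt genes of the perinuclear theca, share only the first letters, and they are counted with the 181 but not described as enzymes.

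RNA was sequenced from 8 mouse libraries, 4 labelled Ad-KLK8 and 4 labelled Ad-control, all of them labelled as lung and as pulmonary endothelial cells. KLK8 is kallikrein-related peptidase 8, a secreted serine protease, and the title of the study is about its inhibition in lung injury caused by endotoxin. The labels do not spell out Ad, name no strain, age or sex, and do not say whether replicates were separate cultures or animals, so the p-values below measure only the spread between these libraries, which may be technical. The comparison asks how these enzymes differ in the Ad-KLK8 libraries, set against Ad-control.

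Drug-metabolising enzymes work in sequence. Cytochromes P450 and flavin monooxygenases add or uncover an oxygen group, using electrons passed on by NADPH-cytochrome P450 reductase, and epoxide hydrolases open the reactive epoxides that result. Glutathione transferases (GSTs), UDP-glucuronosyltransferases (UGTs) and sulfotransferases (SULTs) then attach glutathione, glucuronate or sulfate, and transporters of the ABC family carry the conjugates out of the cell. Many of the same proteins act on the body's own lipids: sterols, retinoic acid, eicosanoids and the aldehydes of oxidised fatty acids. In lung, much of the capacity for foreign compounds is known to lie in club cells of the airway, and endothelium and stroma carry a smaller set that includes Cyp1b1.

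The libraries held 17785910 to 18702951 gene-assigned reads in Ad-KLK8 and 15771883 to 16761445 in Ad-control, recovered from the steps of the deposited RPKM values. RPKM is the reads of a gene scaled to its length and to the reads of the library, and it can be compared between genes. Ad-KLK8 2 stood apart from the other Ad-KLK8 libraries, as its read counts differed from each of theirs by 18.9 to 20.6 chi-square units per degree of freedom, where those 3 differed among themselves by 2.15 to 2.70. Ad-control 1 and 3 differed by 2.53, and the other pairs of Ad-control libraries by 6.71 to 11.4. Klk8 itself did not separate the groups, at 1159, 3263, 1354 and 1276 RPKM in Ad-KLK8 and 1135, 1403, 1232 and 1422 RPKM in Ad-control (log2 difference 0.31, exact permutation test over the libraries, two-sided p = 0.657, where the smallest p possible is 0.0286). That difference rests on Ad-KLK8 2, without which it was -0.04 (exact permutation p = 0.743). Directions below therefore go by the labels alone. Of 12 endothelial markers, 9 were under 0.5 RPKM on average, among them Cdh5, Pecam1, Cldn5, Emcn and Erg at or near 0, and the list summed to 17.2 to 20.1 RPKM in Ad-KLK8 and 25.7 to 28.9 RPKM in Ad-control. Fibroblast markers summed to 3875 to 3999 RPKM in Ad-KLK8 and 1781 to 2017 RPKM in Ad-control, with 8 of 9 higher and Pdpn lower, and mesothelial markers to 541 to 590 RPKM in Ad-KLK8 and 161 to 209 RPKM in Ad-control, with 4 of 5 higher and Krt19 lower. These marker levels move with the groups like the enzymes described below, and their part in the results was not tested. In bulk RNA, fewer cells of a type and less RNA per cell cannot be told apart.

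Most of these genes were at or near 0 in both groups. Of the 181 genes, 83 had no read in any library, 55 had reads but averaged under 0.5 RPKM, and 43, including Fmod, were tested. No read was found for 50 of the 98 Cyp genes, 15 of the 21 SULT genes, 10 of the 21 UGT genes and 1 of the 22 GST genes (Gstm3). The clusters with no tested member included the 14 neighbouring Cyp2c genes and the 8 Cyp3a genes in a row, which hold the main drug-metabolising P450s of liver. Expression was instead concentrated in 3 genes, as Ephx1, Gstp1 and Cyp1b1 made up 61.3 to 64.8% of the summed RPKM of all the enzymes in Ad-KLK8 and 52.3 to 55.8% in Ad-control.

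Ephx1 was the highest enzyme in Ad-KLK8 and Gstp1 the highest in Ad-control. By mean level among all genes, Ephx1 had rank 190 in Ad-KLK8 and rank 339 in Ad-control, Gstp1 had rank 236 in Ad-KLK8 and 277 in Ad-control, and Cyp1b1 had rank 589 in Ad-KLK8 and 1209 in Ad-control. The enzymes together summed to 1029 ± 19.8 RPKM in Ad-KLK8 and 757 ± 64.9 RPKM in Ad-control (SD, n = 4 each). By family, the GSTs summed to 476 ± 12.3 RPKM in Ad-KLK8 and 419 ± 41.7 in Ad-control. The P450s summed to 224 ± 7.88 RPKM in Ad-KLK8 and 148 ± 12.0 in Ad-control, the epoxide hydrolases to 306 ± 12.3 in Ad-KLK8 and 171 ± 12.6 in Ad-control, and the UGTs to 18.04 ± 1.66 in Ad-KLK8 and 7.55 ± 1.94 in Ad-control. The lower sum in Ad-KLK8 was found for the flavin monooxygenases, at 1.23 ± 0.13 RPKM in Ad-KLK8 and 1.98 ± 0.19 in Ad-control, and the SULTs, at 3.74 ± 0.29 RPKM in Ad-KLK8 and 9.03 ± 1.24 in Ad-control.

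Among the 43 tested genes, 24 were higher and 12 lower in Ad-KLK8 at an adjusted p under 0.05 (limma on log2(RPKM + 1), Benjamini-Hochberg over 11998 genes), and 7 were not called. So 36 of 43 were called, against 77.7% of all genes tested, and the direction split differed from the background more than the count did: 25.7% of all genes were called higher and 52.0% lower. The median log2 change was 0.31 for the 43 genes and -0.19 for all genes, and under median-of-ratios scaling, which moves the median of all genes to 0.02, it was 0.53, with 29 higher, 10 lower and 4 not called. Under that scaling the background was 77.2% called, 40.0% higher and 37.2% lower. The 2 groups of libraries did not overlap in 35 of the 43 genes, against 72.2% of all genes, of which 23.1% had Ad-KLK8 above and 49.1% had it below. Past 2-fold on this scale, 4 genes were higher (Gsta4, Cyp7b1, Ugt1a7c and Cyp2s1), against 2.35% of all genes, and 5 were lower (Sult4a1, Gsto2, Gsto1, Gsta3 and Gstcd), against 9.85%. Changes on the log2(RPKM + 1) scale understate those of genes near or under 1 RPKM.

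**Figure D1:**
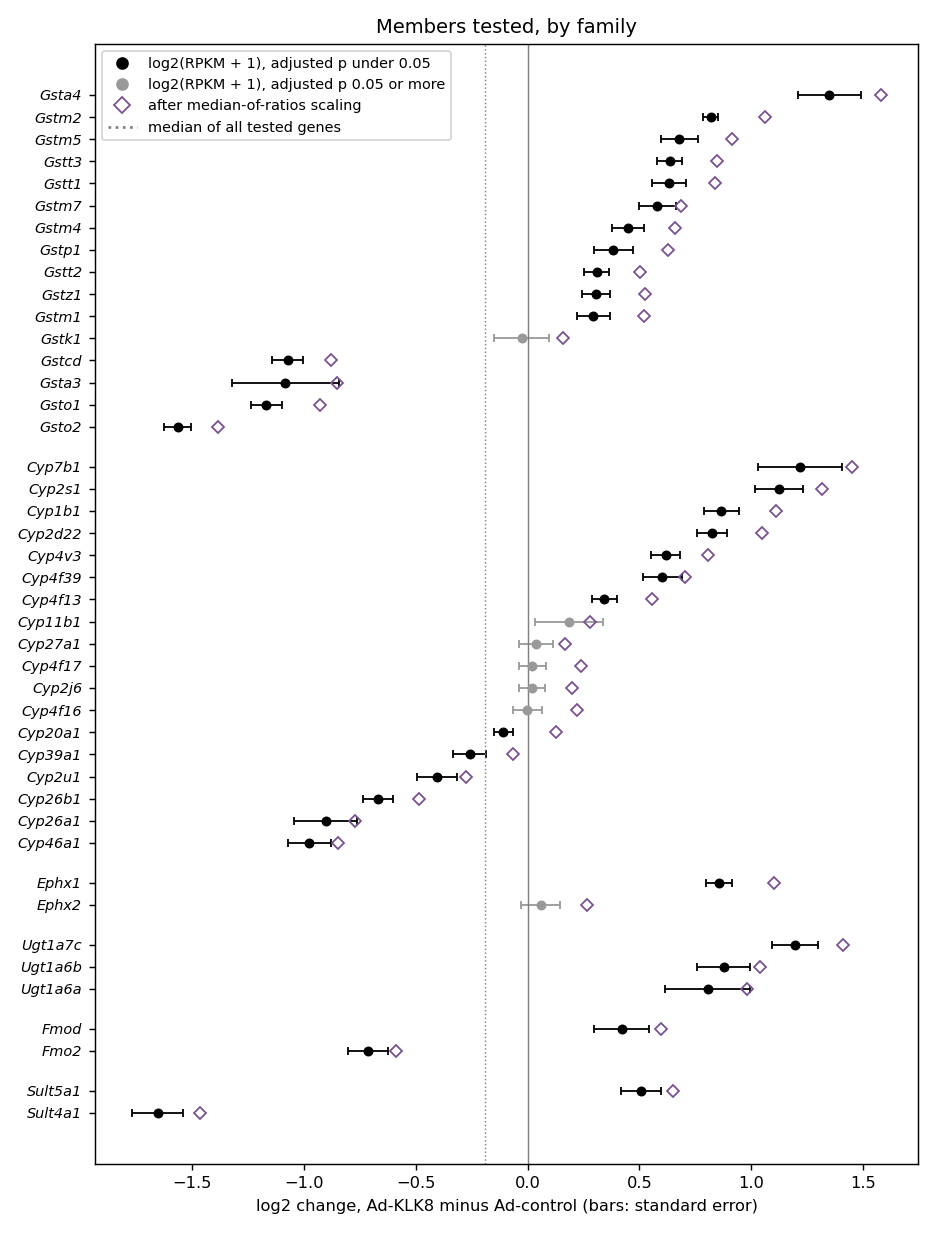
Log2 change of each tested gene (x axis, Ad-KLK8 minus Ad-control on the log2(RPKM + 1) scale; bars, standard error), grouped by family down the page, with black points for genes called at an adjusted p under 0.05, grey points for the others and diamonds for the change after median-of-ratios scaling. Points right of 0 are higher in Ad-KLK8: they run up to 1.35 for Gsta4, and Sult4a1 at -1.65 is the lowest, while every diamond lies to the right of its point.

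Glutathione transferases were the most fully expressed family, with 16 of 22 genes tested. In Ad-KLK8, 11 were higher, 4 were lower and Gstk1 was not called. Of all genes tested, 25.7% were called higher and 52.0% lower. The GST counts were the same under median-of-ratios scaling, where 40.0% of all genes were called higher and 37.2% lower. By class, all 5 tested mu genes, all 3 tested theta genes, the tested pi gene and the zeta gene were higher, both omega genes and Gstcd were lower, and the 2 tested alpha genes moved in opposite directions.

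Gstp1, the pi-class transferase and the main GST of many non-hepatic cells, had 267, 242, 247 and 238 RPKM in Ad-KLK8, against 207, 163, 220 and 175 RPKM in Ad-control. Every Ad-KLK8 library was above every Ad-control library, with the smallest gap between Ad-KLK8 4 and Ad-control 3. The log2 change was 0.38 ± 0.09 (SE; limma adjusted p = 0.00238). Of its 100-base stretches of transcript, 25.1% also occur in another gene, its near copy Gstp2, which had 21 reads in all of Ad-KLK8 and 29 in all of Ad-control, and the sources used here do not give how the authors assigned such shared reads.

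The mu class conjugates a wide range of epoxides and aromatic compounds, and Gstm2 was its most abundant gene. Gstm2 had 63.4, 63.4, 63.3 and 61.9 RPKM in Ad-KLK8, against 35.4, 34.5, 35.6 and 35.7 RPKM in Ad-control. The spread within each group was very small beside the gap, and the log2 change was 0.82 ± 0.03 (SE; limma adjusted p = 7.3e-09). Gstm5, known in mouse for its expression in brain and testis, had 29.8, 35.1, 28.3 and 29.9 RPKM in Ad-KLK8, against 16.8, 18.6, 18.3 and 21.8 RPKM in Ad-control, again with no overlap (log2 change 0.68 ± 0.08, SE; limma adjusted p = 2.29e-05). Gstm1, a major mu enzyme of mouse liver, was nearer between the groups, at 13.5, 14.4, 11.8 and 12.4 RPKM in Ad-KLK8 and 11.4, 9.24, 10.3 and 10.8 RPKM in Ad-control. Its log2 change was 0.29 ± 0.07 (SE; limma adjusted p = 0.004), and the lowest Ad-KLK8 library lay just above the highest Ad-control library. Gstm4 had 6.95, 6.93, 6.32 and 6.52 RPKM in Ad-KLK8, against 4.44, 4.24, 4.41 and 5.46 RPKM in Ad-control (log2 change 0.45, limma adjusted p = 0.000176). Gstm7 stayed near 1 RPKM, at 0.977 to 1.22 in Ad-KLK8 and 0.255 to 0.560 in Ad-control (log2 change 0.58, limma adjusted p = 8.51e-05). The 5 tested genes lie in 1 run of 7 neighbouring mu genes on chromosome 3 of the RefSeq annotation, in the order Gstm5, Gstm7, Gstm6, Gstm3, Gstm2, Gstm1 and Gstm4, and all 5 were called higher, whereas Gstm6 had 25 reads in all of Ad-KLK8 and 24 in all of Ad-control.

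The alpha class held the sharpest contrast between close relatives. Gsta4, which conjugates 4-hydroxynonenal and other aldehydes of lipid peroxidation, had 26.8, 29.6, 30.2 and 27.1 RPKM in Ad-KLK8, against 12.9, 8.40, 13.4 and 8.36 RPKM in Ad-control. Gsta3, an alpha enzyme that in mouse detoxifies aflatoxin epoxide, had 11.8, 13.4, 10.9 and 10.8 RPKM in Ad-KLK8, against 36.9, 17.5, 38.4 and 17.9 RPKM in Ad-control. Neither gene overlapped between the groups. The log2 change was 1.35 ± 0.14 for Gsta4 (SE; limma adjusted p = 6.83e-06) and -1.08 ± 0.24 for Gsta3 (SE; limma adjusted p = 0.00178). Gsta4 therefore exceeded Gsta3 by 2.20 to 2.76 times in the Ad-KLK8 libraries, and was 0.349 to 0.480 of Gsta3 in the Ad-control libraries. Both were higher in Ad-control 1 and 3 than in Ad-control 2 and 4, by 2.12 times for Gsta3 and 1.57 times for Gsta4 in the means of the pairs, and with the similar libraries averaged the log2 change of Gsta3 was -0.85 (limma adjusted p = 0.0403). The macrophage marker Lyz2 split the Ad-control libraries the same way, at 207 and 161 RPKM in libraries 1 and 3 and 109 and 89.4 RPKM in libraries 2 and 4. Such a split, in either direction, was found in 49.0% of all tested genes, and the part of Lyz2 in the Gsta3 values was not tested. The 6 leukocyte markers summed to 68.6 to 101 RPKM in Ad-KLK8 and 112 to 247 RPKM in Ad-control, with all 3 tested markers lower and Cd3e and Cd79a at or near 0.

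Omega transferases reduce dehydroascorbate and methylated arsenicals and remove glutathione from proteins, reactions unlike those of the other classes. Gsto1 had 37.0, 36.0, 35.1 and 37.5 RPKM in Ad-KLK8, against 83.5, 93.1, 85.9 and 71.5 RPKM in Ad-control. Its neighbour Gsto2 had 1.43, 1.29, 1.35 and 1.53 RPKM in Ad-KLK8, against 6.16, 5.95, 6.67 and 5.70 RPKM in Ad-control. Both were lower in every Ad-KLK8 library, by 2.29 times for Gsto1 and 4.36 times for Gsto2 in mean RPKM. The log2 change was -1.17 ± 0.07 for Gsto1 (SE; limma adjusted p = 1.01e-07) and -1.57 ± 0.06 for Gsto2 (SE; limma adjusted p = 7.05e-09). Gstcd, a protein with a GST carboxy-terminal domain named in human studies of lung function, was lower too, at 2.23, 2.71, 2.51 and 2.60 RPKM in Ad-KLK8 and 6.58, 6.90, 5.71 and 6.40 RPKM in Ad-control (log2 change -1.07 ± 0.07, SE; limma adjusted p = 1.51e-07).

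The theta genes, which act on small halogenated molecules, rose together. Gstt3 had 7.79, 8.40, 8.63 and 9.22 RPKM in Ad-KLK8, against 4.93, 5.28, 5.32 and 4.93 RPKM in Ad-control (log2 change 0.64, limma adjusted p = 2.15e-06). Gstt1 had 6.86, 5.90, 7.49 and 7.58 RPKM in Ad-KLK8, against 4, 4.33, 4.32 and 3.82 RPKM in Ad-control (log2 change 0.63, limma adjusted p = 1.94e-05). The third, Gstt2, ran at 4.17 to 4.45 RPKM in Ad-KLK8 and 3.05 to 3.56 RPKM in Ad-control (log2 change 0.31). All 3 lie in 1 run of neighbouring genes on chromosome 10. Gstz1, the zeta enzyme of tyrosine breakdown, had 8.67, 10.1, 8.78 and 8.30 RPKM in Ad-KLK8, against 6.94, 7.17, 7.43 and 6.63 RPKM in Ad-control (log2 change 0.31, limma adjusted p = 0.00105). Gstk1, the kappa enzyme of mitochondria and peroxisomes, overlapped, at 2.03 to 3.65 RPKM in Ad-KLK8 and 2.65 to 3.34 RPKM in Ad-control (log2 change -0.03, limma adjusted p = 0.856, and 0.16 under median-of-ratios scaling).

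**Figure D2:**
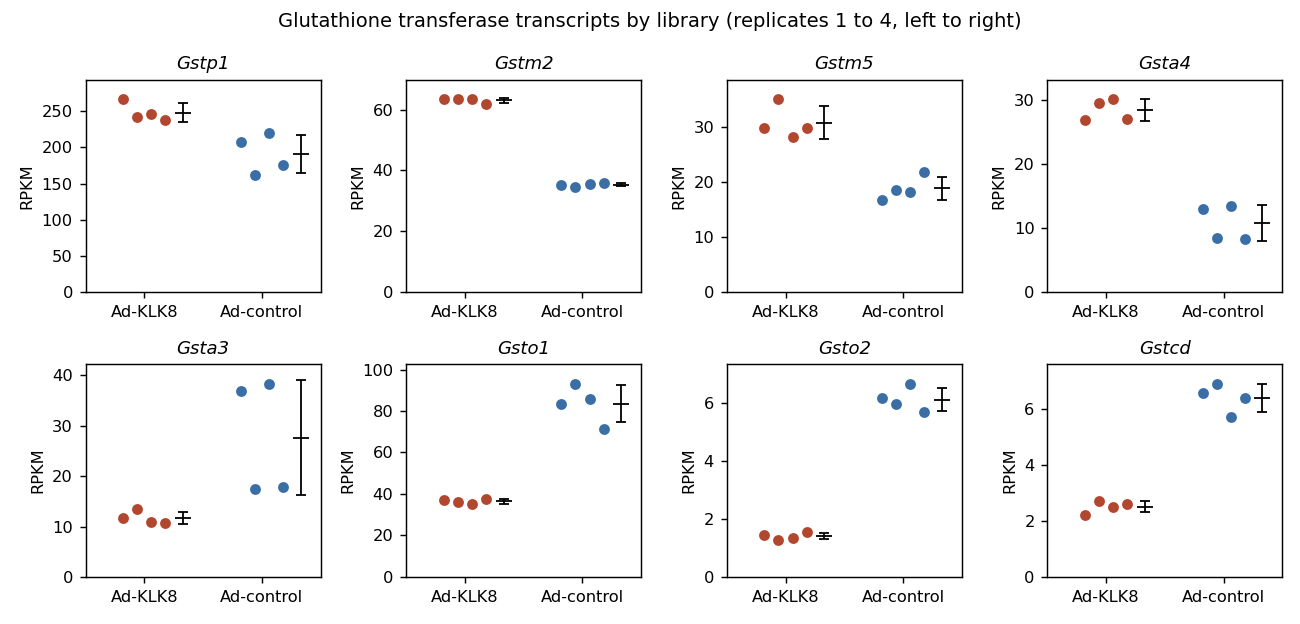
RPKM (y axis, linear from 0) of single glutathione transferase genes in each library, with Ad-KLK8 at the left and Ad-control at the right of each panel and the mean and SD of the 4 libraries beside the points. Gsta4 and Gsta3 change places between the groups, Gsto1 is near 36 RPKM in Ad-KLK8 and above 71 RPKM in Ad-control, and the Ad-control points of Gsta3 form a high pair and a low pair.

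By class, the composition of the GST transcripts differed more than their sum. The omega class made up 7.74 to 8.44% of the summed GST RPKM in Ad-KLK8 and 19.97 to 25.8% in Ad-control. The mu class made up 23.4 to 25.4% in Ad-KLK8 and 15.0 to 19.5% in Ad-control, and the pi class 50.6 to 54.4% in Ad-KLK8 and 42.3 to 47.5% in Ad-control. These 3 shares did not overlap between the groups. Neither did those of the theta class, at 3.87 to 4.62% in Ad-KLK8 and 2.75 to 3.29% in Ad-control, and of Gstcd, at 0.453 to 0.568% in Ad-KLK8 and 1.23 to 1.79% in Ad-control. The shares are parts of the same sum, so a lower share of a class raises the others. The alpha share overlapped, at 7.86 to 9% in Ad-KLK8 and 6.75 to 11.2% in Ad-control, and its 2 tested genes moved in opposite directions. The zeta and kappa shares overlapped as well.

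**Figure D3:**
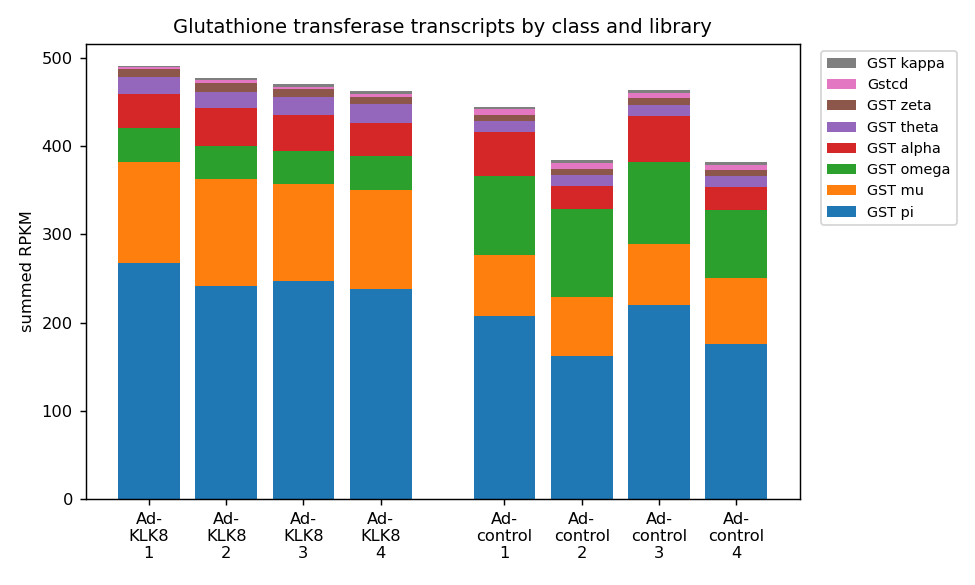
Summed RPKM of the glutathione transferase classes (y axis, from 0; stacked) in each library, with the 4 Ad-KLK8 libraries at the left. The omega segment is narrow in Ad-KLK8, at 7.74 to 8.44% of the sum, and wide in Ad-control, at 19.97 to 25.8%, while the mu segment is the wider one in Ad-KLK8.

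Of the 98 P450 genes, 18 were tested, of which 7 were higher in Ad-KLK8, 6 were lower and 5 were not called. So 72.2% were called, a share under the 77.7% of all genes tested. By direction, 38.9% were higher and 33.3% lower, against 25.7% and 52.0% of all genes. Under median-of-ratios scaling the same 18 genes gave 11 higher, 4 lower and 3 not called, where 40.0% of all genes were higher and 37.2% lower. By substrate, 3 of the 4 tested P450s of foreign compounds or of unknown substrates were higher, and both tested P450s of retinoic acid were lower.

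Cyp1b1, which oxidises polycyclic hydrocarbons and oestradiol and is the P450 best known from vessel wall and stroma, was by far the most abundant P450. It had 107, 101, 105 and 102 RPKM in Ad-KLK8, against 63.1, 53.3, 62.4 and 48.0 RPKM in Ad-control. The groups were well apart, with a log2 change of 0.87 ± 0.08 (SE; limma adjusted p = 2.5e-06). Cyp1a1, its relative and the usual reporter of aryl hydrocarbon receptor activity, had 0 reads in Ad-KLK8 and 1 read in Ad-control. Cyp2s1, a P450 of epithelia and of skin, had 6.33, 6.56, 6.13 and 6.83 RPKM in Ad-KLK8, against 2.75, 1.64, 2.75 and 2.68 RPKM in Ad-control (log2 change 1.12 ± 0.11, SE; limma adjusted p = 3.67e-06). Cyp2d22, the mouse gene most often set beside human CYP2D6, had 17.0, 14.8, 14.6 and 15.4 RPKM in Ad-KLK8, against 8.50, 9.01, 7.26 and 8.49 RPKM in Ad-control (log2 change 0.82 ± 0.07, SE; limma adjusted p = 1.14e-06). All 3 genes were higher in each Ad-KLK8 library than in any Ad-control library. The orphan Cyp20a1, with no settled substrate, was nearly level at 16.8 to 18.2 RPKM in Ad-KLK8 and 18.3 to 19.6 RPKM in Ad-control, and its call has no stable direction: the log2 change was -0.11 (limma adjusted p = 0.0388), but 0.13 (adjusted p = 0.0186) after median-of-ratios scaling.

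The P450s of sterols split. Cyp7b1, an oxysterol and neurosteroid hydroxylase, had 32.7, 51.4, 31.1 and 34.2 RPKM in Ad-KLK8, against 19.8, 12.1, 18.2 and 12.0 RPKM in Ad-control. Ad-KLK8 2 was the highest of the libraries, and the others of its group still lay above every Ad-control library. The log2 change was 1.22 ± 0.19 (SE; limma adjusted p = 0.000144), and 1.06 (adjusted p = 0.000158) without Ad-KLK8 2. Cyp46a1, the cholesterol 24-hydroxylase known from neurons, had 0.410, 0.795, 0.483 and 0.719 RPKM in Ad-KLK8, against 2.39, 2.30, 1.79 and 2.10 RPKM in Ad-control (log2 change -0.98 ± 0.10, SE; limma adjusted p = 4.23e-06). Cyp39a1, which hydroxylates the product of Cyp46a1, was slightly lower at 3.03 to 3.66 RPKM in Ad-KLK8 and 3.77 to 4.51 RPKM in Ad-control (log2 change -0.26, limma adjusted p = 0.00808), a call lost after median-of-ratios scaling (-0.06, adjusted p = 0.42). Cyp27a1, the sterol 27-hydroxylase, averaged 1.16 ± 0.13 RPKM in Ad-KLK8 and 1.11 ± 0.17 RPKM in Ad-control (SD, n = 4 each; limma adjusted p = 0.679).

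Both tested P450s that break down retinoic acid were lower. Cyp26b1, the form found in many lung and vascular cells, had 2.43, 2.13, 2.10 and 2.41 RPKM in Ad-KLK8, against 3.94, 3.97, 4.21 and 4.66 RPKM in Ad-control (log2 change -0.67 ± 0.07, SE; limma adjusted p = 4.31e-06). Cyp26a1, the form most strongly induced by retinoic acid itself, had 0.640, 0.514, 0.610 and 0.806 RPKM in Ad-KLK8, against 2.38, 1.60, 3.03 and 1.49 RPKM in Ad-control (log2 change -0.90 ± 0.14, SE; limma adjusted p = 0.000164). Neither overlapped between the groups, where 52.0% of all genes were called lower and 49.1% lay wholly below Ad-control. An enzyme that makes retinoic acid in many tissues, Aldh1a1, moved the other way, at 282 ± 15.4 RPKM in Ad-KLK8 and 154 ± 19.5 RPKM in Ad-control (SD, n = 4 each; log2 change 0.88, limma adjusted p = 3.44e-06). Other genes of retinoic acid synthesis are not reported here.

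Of the 7 tested P450s of fatty acids and eicosanoids, 3 were higher, 1 was lower and 3 were not called, while under median-of-ratios scaling 6 were higher and 1 was lower. The share called as reported, 57.1%, was under the 77.7% of all genes tested. Cyp4v3, a fatty acid omega-hydroxylase, had 4.56 to 4.89 RPKM in Ad-KLK8 and 2.32 to 2.92 RPKM in Ad-control (log2 change 0.62, limma adjusted p = 6.83e-06). Cyp4f39, which in mouse serves the very long chain lipids of the skin barrier, had 1.06 to 1.35 RPKM in Ad-KLK8 and 0.225 to 0.559 RPKM in Ad-control (log2 change 0.60, limma adjusted p = 9.57e-05). Cyp4f13, of the subfamily that hydroxylates leukotrienes and fatty acids, had 7.17, 8.12, 7.90 and 7.92 RPKM in Ad-KLK8, against 5.55, 5.96, 6.38 and 5.80 RPKM in Ad-control (log2 change 0.34, limma adjusted p = 0.000228). Of its relatives, Cyp4f16 ran at 9.01 to 10.3 RPKM in Ad-KLK8 and 8.57 to 10.4 RPKM in Ad-control, with a log2 change of 0.00 that becomes 0.22 (adjusted p = 0.00819) under median-of-ratios scaling, and Cyp4f17 at 7.18 to 7.86 RPKM in Ad-KLK8 and 6.56 to 7.89 RPKM in Ad-control, with a log2 change of 0.02 (limma adjusted p = 0.774) that becomes 0.24 (adjusted p = 0.00361). Both lie in 1 run of neighbouring genes with Cyp4f39 on chromosome 17. Cyp2u1, an arachidonic acid hydroxylase, was lower, at 0.695 to 1.09 RPKM in Ad-KLK8 and 1.27 to 1.74 RPKM in Ad-control (log2 change -0.41, limma adjusted p = 0.00159), a call lost after quantile normalization (-0.06, adjusted p = 0.548). Cyp2j6, of the epoxygenase subfamily, averaged 2.68 ± 0.16 RPKM in Ad-KLK8 and 2.63 ± 0.15 RPKM in Ad-control (SD, n = 4 each; limma adjusted p = 0.769). The steroidogenic Cyp11b1 was low and uneven, at 0.328 to 1.014 RPKM in Ad-KLK8 and 0.238 to 0.746 RPKM in Ad-control (limma adjusted p = 0.287).

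Epoxide hydrolases were led by Ephx1, the microsomal form that opens epoxides of foreign compounds. Ephx1 had 310, 285, 310 and 297 RPKM in Ad-KLK8, against 176, 149, 175 and 164 RPKM in Ad-control. The log2 change was 0.86 ± 0.06 (SE; limma adjusted p = 2.93e-07), and the groups lay far apart. Ephx2, the soluble form that hydrolyses the epoxides of arachidonic acid, had 5.28, 4.65, 5.48 and 5.64 RPKM in Ad-KLK8, against 5.37, 5.09, 4.06 and 5.59 RPKM in Ad-control, and the groups overlapped (log2 change 0.06, limma adjusted p = 0.551, and 0.27, adjusted p = 0.0183, under median-of-ratios scaling).

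Of the UGT genes, only transcripts of the Ugt1a locus passed 0.5 RPKM, and all 3 tested were higher. Ugt1a7c had 11.7, 9.47, 11.3 and 11.4 RPKM in Ad-KLK8, against 5.18, 3.91, 4.51 and 3.40 RPKM in Ad-control (log2 change 1.20 ± 0.10, SE; limma adjusted p = 1.58e-06). Ugt1a6b had 2.90, 2.94, 3.95 and 2.63 RPKM in Ad-KLK8, against 1.35, 0.995, 1.63 and 0.967 RPKM in Ad-control (log2 change 0.88 ± 0.12, SE; limma adjusted p = 5.06e-05). Ugt1a6a, a glucuronosyltransferase for small phenols, had 3.85, 3.17, 4.20 and 4.35 RPKM in Ad-KLK8, against 3.21, 1.11, 1.98 and 1.27 RPKM in Ad-control, and Ad-control 1 lay just above Ad-KLK8 2 (log2 change 0.81 ± 0.19, SE; limma adjusted p = 0.00273). The Ugt1a forms differ in their first exon and share the rest: of their 100-base stretches, 70.9% for Ugt1a6b, 51.6% for Ugt1a7c and 50.4% for Ugt1a6a also occur in another gene, so that how the reads divide between these forms is uncertain.

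The tested SULT genes moved in opposite directions. Sult4a1, a sulfotransferase-like protein of brain for which few substrates are known, had 1.68, 2.28, 1.65 and 1.47 RPKM in Ad-KLK8, against 6.88, 8.00, 6.62 and 9.46 RPKM in Ad-control. It was 4.37 times lower in Ad-KLK8 by mean RPKM, with no overlap (log2 change -1.65 ± 0.11, SE; limma adjusted p = 2.95e-07). Sult5a1 had 1.44 to 2.26 RPKM in Ad-KLK8 and 0.910 to 1.18 RPKM in Ad-control (log2 change 0.51, limma adjusted p = 0.000419). Fmo2, the flavin monooxygenase characteristic of lung, was low and lower still in Ad-KLK8, at 0.446, 0.464, 0.762 and 0.781 RPKM, against 1.49, 1.58, 1.89 and 1.58 RPKM in Ad-control (log2 change -0.71 ± 0.09, SE; limma adjusted p = 3.13e-05). Fmod, not an enzyme, was higher in Ad-KLK8, at 2.58 to 4.40 RPKM against 1.88 to 2.29 RPKM in Ad-control (log2 change 0.42, limma adjusted p = 0.00937).

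**Figure D4:**
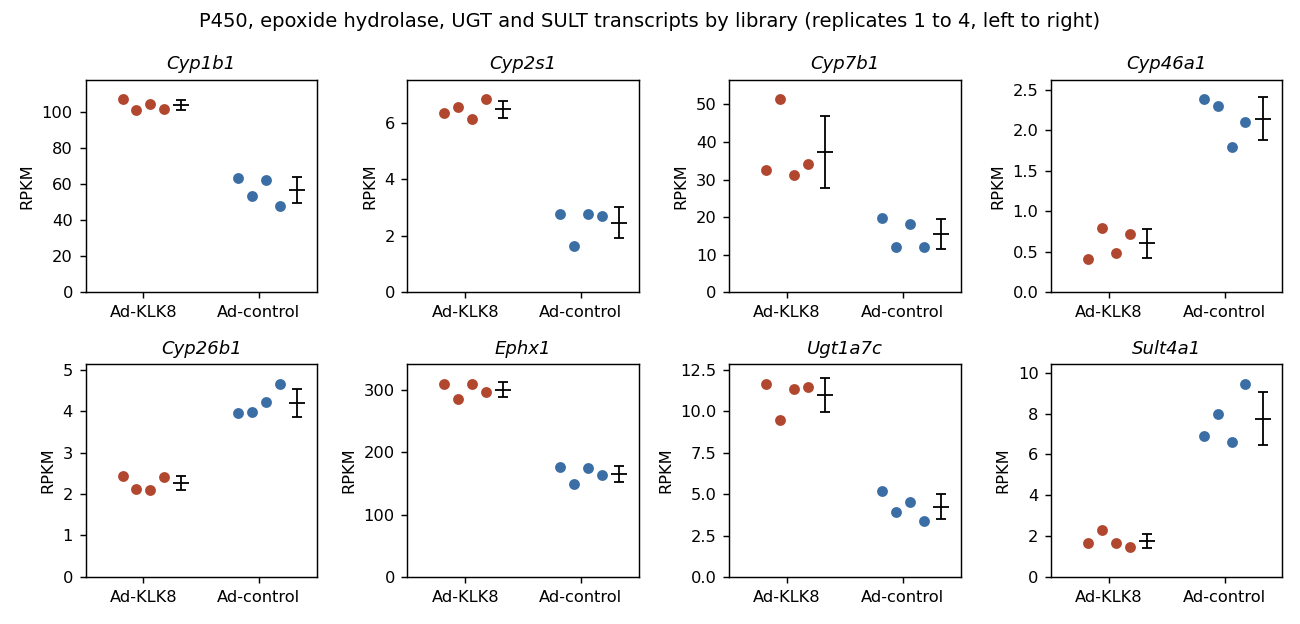
RPKM (y axis, linear from 0) of single P450, epoxide hydrolase, UGT and SULT genes in each library, with Ad-KLK8 at the left and Ad-control at the right of each panel and the mean and SD of the 4 libraries beside the points. Cyp1b1 lies at 101 to 107 RPKM in Ad-KLK8 and 48.0 to 63.1 RPKM in Ad-control, Ad-KLK8 2 stands above its group in Cyp7b1, and Sult4a1 is under 2.5 RPKM in Ad-KLK8 and above 6 RPKM in Ad-control.

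The genes under the filter held few reads, 36 of the 55 having under 10 reads over all libraries, and they are described without a test. Fmo5, a flavin monooxygenase known from liver and gut, held the most, with 80, 81, 73 and 75 reads in Ad-KLK8, against 18, 18, 11 and 10 reads in Ad-control. Several others, named after their values were seen, lay the other way. Cyp3a13 had 2, 0, 0 and 0 reads in Ad-KLK8, against 10, 11, 15 and 8 reads in Ad-control. Cyp27b1, which activates vitamin D, had 2, 4, 1 and 4 reads in Ad-KLK8 and 10, 11, 11 and 18 reads in Ad-control. No read of Cyp2c55 was found in Ad-KLK8, where Ad-control held 2, 6, 7 and 4 reads, and none of Ugt8a, the enzyme of galactosylceramide synthesis, where Ad-control held 5, 8, 5 and 3 reads. A library with 0 reads allows up to 3 reads, or 0.160 to 0.169 RPM (reads scaled to library size only) in Ad-KLK8 and 0.179 to 0.190 RPM in Ad-control, for counting error only. The P450s typical of club cells were near absent in both groups: Cyp2f2 had 2, 0, 0 and 1 reads in Ad-KLK8 and 0, 0, 0 and 1 reads in Ad-control, Cyp4b1 had 0 reads in Ad-KLK8 and 1 read in Ad-control, and Cyp2b10 had 3 reads in Ad-KLK8 and 17 in Ad-control. Scgb1a1 and Scgb3a2, the secretoglobins that define club cells, had no reads in any library, and the 8 markers of airway club cells and alveolar epithelium summed to 0.218 to 2.67 RPKM in Ad-KLK8 and 0.482 to 6 RPKM in Ad-control.

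Inside Ad-control, libraries 1 and 3 lay both above or both below libraries 2 and 4 in 18 of the 43 tested genes (41.9%), a share under the 49.0% of all tested genes. The pair 1 and 3 was the higher one in 14 of the 18, by 2.18 times in Ugt1a6a, 2.16 times in Cyp11b1, 2.12 times in Gsta3 and 1.75 times in Cyp26a1, by the means of the pairs. It was the lower one in the other 4, Cyp4f39, Sult4a1, Cyp27a1 and Gstm5. These pairs were recognised from the data, not from the labels. Ad-KLK8 2 lay furthest from its group in Cyp7b1, Ugt1a7c and Fmod.

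A 300-base promoter (250 bases before the start to 50 after it) was available from RefSeq, build GRCm38.p6, for 32 of the tested genes, in 40 versions. They were searched on both strands for the core of the xenobiotic response element bound by the aryl hydrocarbon receptor with ARNT, GCGTG, and for the core of the antioxidant response element bound by NRF2, TGACNNNGC. The GCGTG core occurred in 27.5% of the 40 versions and in 32.4% of all 32851 promoters of the table. For TGACNNNGC the shares were 12.5% of the 40 and 12.4% of all. The promoters printed here, 5′ to 3′ on the strand of the gene, are those of the most abundant P450, of a mu gene with both motifs and a mu gene with neither, of the alpha gene that was lower, and of the gene with the most GCGTG cores. Capitals mark matches to either motif, CACGC being GCGTG read on the other strand.
Cyp1b1: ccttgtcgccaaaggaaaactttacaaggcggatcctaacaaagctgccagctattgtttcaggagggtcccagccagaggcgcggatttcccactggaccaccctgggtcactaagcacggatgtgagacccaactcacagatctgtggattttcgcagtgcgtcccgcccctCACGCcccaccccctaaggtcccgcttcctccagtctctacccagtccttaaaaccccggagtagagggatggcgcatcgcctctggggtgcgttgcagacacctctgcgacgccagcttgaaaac
Gstm5: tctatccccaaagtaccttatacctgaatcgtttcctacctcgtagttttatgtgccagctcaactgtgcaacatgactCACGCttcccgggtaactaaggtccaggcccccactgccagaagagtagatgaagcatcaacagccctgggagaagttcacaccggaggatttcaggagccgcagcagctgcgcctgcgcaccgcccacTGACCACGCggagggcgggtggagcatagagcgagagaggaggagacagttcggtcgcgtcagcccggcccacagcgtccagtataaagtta
Gstm2: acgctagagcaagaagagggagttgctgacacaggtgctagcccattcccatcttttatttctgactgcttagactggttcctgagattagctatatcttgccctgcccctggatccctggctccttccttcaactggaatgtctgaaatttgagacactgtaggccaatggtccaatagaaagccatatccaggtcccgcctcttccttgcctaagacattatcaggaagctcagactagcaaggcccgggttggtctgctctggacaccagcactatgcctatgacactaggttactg
Gsta3: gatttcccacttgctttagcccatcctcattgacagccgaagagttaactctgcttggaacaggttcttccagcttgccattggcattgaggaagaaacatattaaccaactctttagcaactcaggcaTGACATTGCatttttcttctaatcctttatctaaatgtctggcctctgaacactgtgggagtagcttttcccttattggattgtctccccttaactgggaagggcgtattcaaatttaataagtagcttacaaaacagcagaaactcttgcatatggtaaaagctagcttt
Cyp46a1: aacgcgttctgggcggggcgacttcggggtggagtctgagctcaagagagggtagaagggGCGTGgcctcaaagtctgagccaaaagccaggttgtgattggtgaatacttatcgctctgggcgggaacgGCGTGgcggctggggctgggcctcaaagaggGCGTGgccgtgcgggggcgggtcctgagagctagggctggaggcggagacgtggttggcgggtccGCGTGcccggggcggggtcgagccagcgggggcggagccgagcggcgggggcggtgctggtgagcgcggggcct
The Cyp1b1 promoter (chr17:79715012-79715311, minus strand), whose gene was higher in Ad-KLK8, holds 1 GCGTG core. The mu genes Gstm5 (chr3:107895604-107895903, plus strand) and Gstm2 (chr3:107986371-107986670, minus strand) were both higher, and their promoters hold 2 GCGTG cores with 1 TGACNNNGC in the first and neither motif in the second; in Gstm5, TGACCACGC is a match to both, which overlap. The promoter of Gsta3 (chr1:21240335-21240634, plus strand) holds 1 TGACNNNGC, and that of Cyp46a1 (chr12:108334066-108334365, plus strand) holds 4 GCGTG cores, and both genes were lower. A match says only that these letters are present in the window.

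The proteins that these enzymes depend on were followed in 7 lists of partner genes, regulators, cofactor supply and transport, with the counts read against 25.7% of all genes called higher and 52.0% lower. Of 10 tested electron partners of the P450s, 2 were higher, 4 lower and 4 not called, and under median-of-ratios scaling 6 were higher and 3 lower. Por, the reductase that supplies every microsomal P450, had 68.2, 63.3, 64.0 and 68.7 RPKM in Ad-KLK8, against 87.4, 84.2, 90.6 and 79.4 RPKM in Ad-control (log2 change -0.37, limma adjusted p = 4.95e-05), a call lost in the voom fit of the reads (-0.11, adjusted p = 0.0614). Cyb5r1, a cytochrome b5 reductase, fell by 1.11 on the log2 scale, and Fdx1, the ferredoxin of mitochondrial P450s, fell by 0.64. Pgrmc1, a haem protein that binds P450s, was higher, at 210 ± 10.2 RPKM in Ad-KLK8 and 148 ± 9.40 RPKM in Ad-control (SD, n = 4 each; log2 change 0.51, limma adjusted p = 9.03e-06).

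All 7 genes of the aryl hydrocarbon receptor pathway were called, 4 higher and 3 lower. Tiparp, a target of the receptor that represses it, had 10.2, 7.48, 9.89 and 10.3 RPKM in Ad-KLK8, against 47.1, 48.1, 43.4 and 58.5 RPKM in Ad-control. It was the most changed of them, with a log2 change of -2.27 ± 0.11 (SE; limma adjusted p = 2.08e-08), so it lay opposite to Cyp1b1. Ahrr, the receptor's dedicated repressor, was also lower, at 0.356 ± 0.05 RPKM in Ad-KLK8 and 0.662 ± 0.18 RPKM in Ad-control (SD, n = 4 each; limma adjusted p = 0.0084), a call lost after quantile normalization (-0.01, adjusted p = 0.876). Its Ad-KLK8 mean was under the 0.5 RPKM filter, so it was tested only through its level in Ad-control. Under median-of-ratios or upper-quartile scaling, and without Ad-control 1 or 3, Ahrr was not tested, which left 6 genes of the list, 2 of them lower. The receptor gene Ahr, singled out here after its values were seen, had 15.3, 9.85, 15.3 and 15.9 RPKM in Ad-KLK8, against 10.2, 10.3, 10.02 and 10.2 RPKM in Ad-control, and Ad-KLK8 2 lay below all 4 Ad-control libraries (log2 change 0.41, limma adjusted p = 0.0106; adjusted p = 0.19 with the similar libraries averaged). Of the partner proteins, Arnt2 was higher (log2 change 0.86), and the co-chaperone Ptges3 fell by 0.53.

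The nuclear receptors of drug response in liver, Nr1i2 (PXR) and Nr1i3 (CAR), had no read or were near 0. Of the 6 tested genes of the list, 4 were higher and 2 lower. Keap1, which holds NRF2 down, had 18.6, 16.4, 18.5 and 17.8 RPKM in Ad-KLK8, against 11.4, 11.3, 12.6 and 11.7 RPKM in Ad-control (log2 change 0.56, limma adjusted p = 3.28e-06). Nfe2l2, the gene of NRF2, had 86.4, 72.5, 83.8 and 84.5 RPKM in Ad-KLK8, against 112, 117, 119 and 105 RPKM in Ad-control (log2 change -0.46, limma adjusted p = 4.47e-05). Neither gene overlapped between the groups. Rxrb was higher by 0.24 on the log2 scale. The bile acid receptor Nr1h4 fell by 0.73 from a low level, 1.06 to 1.55 RPKM in Ad-control. It averaged under 1 RPKM over all libraries, and with a filter at that mean it was not tested.

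Genes of glutathione supply were mostly lower: 8 of 11 tested, with 2 higher and a median log2 change of -0.56. Gclc, the catalytic subunit of the rate-limiting enzyme of glutathione synthesis, had 5.36, 4.33, 5.09 and 4.69 RPKM in Ad-KLK8, against 18.7, 16.04, 19.1 and 14.8 RPKM in Ad-control (log2 change -1.63 ± 0.09, SE; limma adjusted p = 4.72e-08). Gclm, the other subunit, singled out after its values were seen, was called lower. That call was lost after median-of-ratios scaling (-0.33, limma adjusted p = 0.0618). It was also lost after upper-quartile and quantile scaling, in the voom fit and with the similar libraries averaged. Slc7a11, the cystine importer, averaged 0.733 ± 0.11 RPKM in Ad-KLK8 and 5.10 ± 1.08 RPKM in Ad-control (SD, n = 4 each; log2 change -1.80, limma adjusted p = 2.01e-07). Chac1, which breaks glutathione down, was lower as well, at 9.67 ± 1.25 RPKM in Ad-KLK8 and 51.2 ± 3.87 RPKM in Ad-control (SD, n = 4 each; log2 change -2.30, limma adjusted p = 4.27e-09). The list holds genes that break glutathione down or use it as well as genes that make it, so its counts give no direction of supply. Glrx, glutaredoxin, fell by 0.96. The GST genes that use glutathione were higher in 11 of 16 cases in the same libraries, and glutathione itself was not measured. Under median-of-ratios scaling 6 genes of the supply were lower and 2 higher.

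Transporters of conjugates and drugs were lower in 5 of 6 tested cases, with a median log2 change of -1.10. Abcc1, which exports glutathione conjugates, had 21.9, 20.2, 20.6 and 20.8 RPKM in Ad-KLK8, against 52.1, 51.9, 49.7 and 50.3 RPKM in Ad-control (log2 change -1.25 ± 0.04, SE; limma adjusted p = 1.8e-09). The P-glycoprotein genes fell by 1.82 (Abcb1a) and 1.88 (Abcb1b) and the breast cancer resistance protein gene Abcg2 fell by 0.94 on the log2 scale. No library of either group overlapped in these 4 genes. Abcc5 was the exception, with a log2 change of 0.07 (limma adjusted p = 0.408) and 0.28 under median-of-ratios scaling.

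Of 10 genes for the donors of glucuronate and sulfate, 3 were higher, 6 lower and 1 not called, and under median-of-ratios scaling 3 were higher and 3 lower. Ugp2, which makes UDP-glucose, fell by 0.53 and Slc35b3, a carrier of the sulfate donor, fell by 0.65, while Slc35b2, the other such carrier, was higher by 0.38 and Gusb, the lysosomal enzyme that removes glucuronate, by 0.66. Among 21 other enzymes of drug metabolism, 8 were higher, 6 lower and 7 not called, with 11 higher and 4 lower under median-of-ratios scaling. Mgst1, the microsomal glutathione transferase whose symbol lies outside the naming rule, had 294, 278, 301 and 294 RPKM in Ad-KLK8, against 98.1, 68.1, 96.8 and 63.3 RPKM in Ad-control. Its log2 change of 1.85 ± 0.13 (SE; limma adjusted p = 3.54e-07) exceeded that of every GST gene counted above. The level of Mgst1 was of the order of Gstp1 in Ad-KLK8, but well below Gstp1 in every Ad-control library. Maoa, monoamine oxidase A, fell by 0.57 on the log2 scale. Nqo1, a quinone reductase singled out after its values were seen, was at 2.34 ± 0.25 RPKM in Ad-KLK8 and 6.63 ± 2.16 RPKM in Ad-control (SD, n = 4 each; log2 change -1.15, limma adjusted p = 0.000123).

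**Figure D5:**
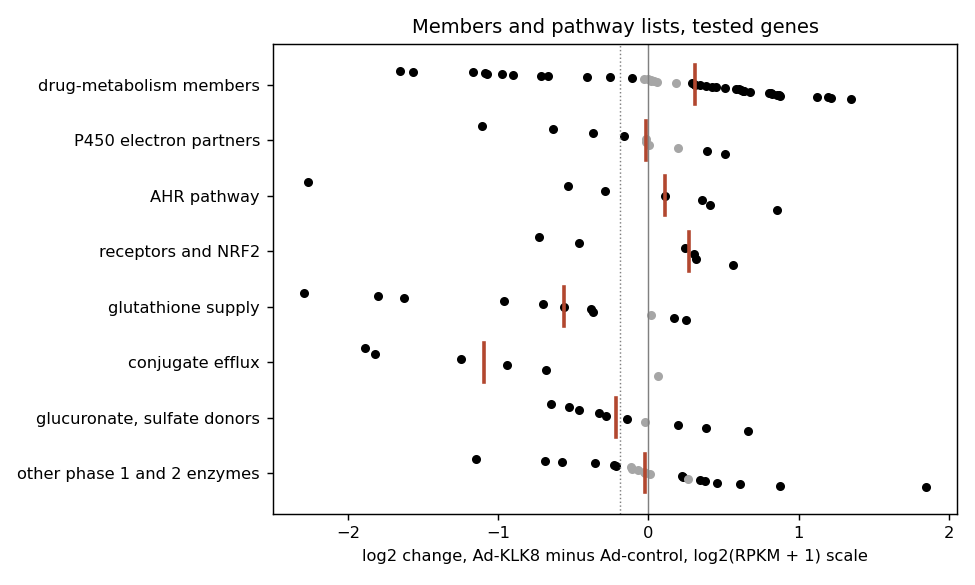
Log2 change of every tested gene (points; x axis, Ad-KLK8 minus Ad-control on the log2(RPKM + 1) scale) of the enzyme families and of the 7 partner lists, with black points for an adjusted p under 0.05, grey points for the others, a red bar at the median of each row and a dotted line at the median of all tested genes. The median of the enzyme families is 0.31, above the dotted line at -0.19, and those of glutathione supply (-0.56) and conjugate efflux (-1.10) lie below it.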

How the data were processed

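RPKM values (reads scaled to gene length and library size) of 8 libraries were deposited in 1 table. Per the labels' protocols, the kits were TRIzol for RNA and a stranded mRNA kit for sequencing. The submitters' processing notes name Cufflinks, DESeq, HISAT2, SAMtools and Trimmomatic with no role or version, and GRCh38, a human build, although the symbols in the table are mouse ones. The sources used here do not give how reads shared by gene copies were assigned.

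Groups came from the labels. The members and lists were chosen with earlier results of these data known. Reads were recovered from the RPKM steps, as the smallest whole numbers that fit all libraries of a gene. The tolerance was 0.001 read plus an allowance for the rounding of large values. Such numbers were found for all 17461 genes above 0, which a gene with reads in a single library meets by construction. In 195 genes the numbers were then raised to give a whole gene length. These reads were 99.9% of the library totals behind the RPKM.

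Values were taken as log2(RPKM + 1) in the 11998 genes that averaged 0.5 RPKM or more and tested, two-sided, with limma 3.58.1 (R 4.3.3; lmFit and a trended eBayes), with Benjamini-Hochberg adjustment over all of them and a threshold of 0.05. Python 3.11.15, pandas 2.3.3 and scipy 1.17.1 were used for tables and exact tests. Genes were named by this rule: per-library values for tested members with a mean of at least 5 RPKM in either group, with a called log2 change of at least 1 in size, or compared with a close relative, with others added where the text says so; members under the filter with the most reads of their family or known from lung; and up to 4 genes with the smallest adjusted p of each list. Some genes that this rule selects in the lists are not reported here. Of 11 donor genes listed, 10 were found in the table. Alternatives were other pseudocounts, filters and scalings, TPM, the replicate block, a voom fit of the recovered reads, averaging of the similar libraries, and leaving out each library. Shared 100-base stretches were counted in GENCODE M21 transcripts. RefSeq (GRCm38.p6) held 180 of the 181 symbols and gave the promoters and gene order. In simulated data of 11968 genes with this comparison's size, the fit recovered 72% of 1.25-fold changes, 88% at 1.5-fold and 100% at 2-fold and at 4-fold, and 5.76% of its calls were false. The simulation changed 50 genes at each fold, up and down equally, with the same dispersion (0.00277) for every gene and independent libraries. In the real data 77.7% of genes were called, more of them lower, and some libraries resembled each other. These rates may therefore not hold for the real comparison.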

Additional observations from a re-analysis of the deposited data

Results flagged for a closer look

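In 150 groups of 4 libraries, 1 for each followed gene and condition, 10 had a highest or lowest library whose gap to its nearest neighbour took up most of the range of the group. Chance flags about 1 in 20 groups. Ad-KLK8 2 was that library in 5 of the 10.

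In Ad-KLK8 2, Cyp7b1 was at 51.4 RPKM, above the other Ad-KLK8 libraries at 31.1 to 34.2 RPKM, and Fmod was at 4.4 RPKM, above the others at 2.58 to 2.85 RPKM. The same library was lowest of its group in Ugt1a7c, at 9.47 RPKM where the others had 11.3 to 11.7 RPKM, in Tiparp, at 7.48 RPKM where the others had 9.89 to 10.3 RPKM, and in Ahr, at 9.85 RPKM where the others had 15.3 to 15.9 RPKM. Gstm2 was lowest in Ad-KLK8 4, at 61.9 RPKM beside 63.3 to 63.4 RPKM, and Gstm7 in Ad-KLK8 3, at 0.977 RPKM beside 1.20 to 1.22 RPKM, both narrow ranges. Among Ad-control libraries, Cyp2s1 was lowest in Ad-control 2, at 1.64 RPKM beside 2.68 to 2.75 RPKM. Gstm4 was highest in Ad-control 4, at 5.46 RPKM beside 4.24 to 4.44 RPKM, and Nr1h4 was highest in Ad-control 1, at 1.55 RPKM beside 1.06 to 1.12 RPKM.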

How the results depend on the processing

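Over 18 alternatives, the tested members called were 34 to 45 (36 as reported), with 22 to 30 higher and 9 to 20 lower. Leaving out each library in turn gave 35 to 36 called, 24 higher in each case, and 11 to 12 lower. Without the filter, 20 members were lower, as 55 more are tested, of which 8 were called lower and 1 (Fmo5) higher. The replicate number as a block left 36 called (24 higher, 12 lower). The numbers do not pair the libraries: same-numbered libraries had deviations correlated at -0.09, -0.07, 0.01 and -0.05.

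Of the partner lists, electron partners called higher were 6 after median-of-ratios or upper-quartile scaling and in the voom fit and 5 after quantile normalization, and lower 2 in the voom fit. Donor genes called lower were 3 after median-of-ratios, upper-quartile or quantile scaling and in voom, under each of which 1 efflux gene was called higher. Glutathione supply genes called lower were 5 in voom. With the similar libraries averaged, 2 aryl hydrocarbon receptor pathway genes and 1 glutathione supply gene were called higher. At a mean of at least 1 RPKM, 1 receptor gene was lower, and without the filter 10 other enzymes were lower. Leaving out libraries in turn, electron partners called were 5 to 6 and other enzymes called 12 to 15.

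Over 75 followed genes and 1341 gene and alternative pairs, 1299 kept their side of the threshold with no reversal, 14 gained a call, 19 lost it and 9 reversed. A change of direction was counted as a reversal only in a gene called as reported or under the alternative. In genes called in neither fit, such as Gstk1, it stayed among the 1299. The reversals were Cyp20a1, at 0.13 (median-of-ratios), 0.12 (upper-quartile), 0.087 (quantile) and 0.15 (voom), Cyp4f16, at 0.22, 0.22, 0.25 and 0.26 under the same alternatives, and Cyp39a1, at 0.030 (quantile). Cyp20a1 was not called without Ad-KLK8 1 (adjusted p = 0.105) or 4 (0.109), or without Ad-control 1 (0.0573), 2 (0.0966) or 3 (0.0699), by limma. Median-of-ratios scaling puts the median of all genes at 0.02 in place of -0.19; the cause of the reversals was not tested. Depth limits the 36 members with 1 to 9 reads in all, of which the limma fit without the filter called Gsta2 alone.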
